A study of Mus musculus with 18 samples.

Results

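The ribosome biogenesis factors described here are 41 protein-coding genes, chosen by name from a deposited table of gene counts for mouse natural killer (NK) cells with and without Acly. They act in ribosomal RNA transcription, processing and modification and in ribosome assembly, and no ribosomal protein is among them. All 41 were found among the 55487 gene identifiers of the table, and all 41 passed the filter on low counts. The mice were Rosa YFP/YFP Ncr1 CRE-ERT2 animals with Acly fl/fl (knock-out, KO) or without it (wild type, WT). In both genotypes Cre was driven from Ncr1, a gene of NK cells, and was switched on by a tamoxifen diet of 48 hours. YFP+ splenic NK cells were sorted 5 days after the diet was withdrawn, so KO and WT cells alike came from mice that had tamoxifen and Cre. The 18 libraries fall into 6 groups of 3, each genotype in 3 conditions. Fresh cells were taken after the sort, primed cells had 72 hours in IL-15 (100 ng/ml), and stimulated cells were primed in the same way, washed and then kept on a plate coated with NKG2D reagent (20 ug/ml) for 6 hours. Acly encodes ATP-citrate lyase, which splits citrate in the cytosol to give acetyl-CoA.

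Ribosome production starts in the nucleolus, where RNA polymerase I copies the ribosomal DNA into a long precursor. Box C/D small nucleolar ribonucleoproteins (snoRNPs) methylate this precursor at chosen sites, and box H/ACA snoRNPs turn chosen uridines into pseudouridines. The small subunit processome, built around the U3 snoRNA, folds and cuts the part that becomes 18S RNA, while other factors shape the large subunit. Lymphocytes enlarge their nucleoli and raise ribosome production when cytokines or antigen bring them into growth. IL-15 is such a growth cytokine for NK cells, and NKG2D is an activating receptor by which they recognise stressed cells.

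Total estimated counts ran between 14772350 and 34367582 per library. Primed KO replicate 1 had the smallest total and held 14693 genes with a count of 1 or more, where the next lowest library held 17873. Acly itself kept 7.6% of its WT level in fresh KO cells, 16.7% in primed KO cells and 22.2% in KO cells after NKG2D. By the level of Xist, each group held 1 library of female pattern, replicate 2 in KO and replicate 1 in WT, beside 2 of male pattern. Levels are given as CPM, the usual unit of counts scaled to the size of their library, here with TMM factors, as single libraries in the order of replicates 1 to 3. Differences are log2 fold changes from edgeR's quasi-likelihood test with their standard error (SE), and adjusted p-values are Benjamini-Hochberg values over all 14864 genes tested, with a threshold of 0.05. Whether replicates came from different mice is not stated. Libraries of female and of male pattern would come from different mice, but the 2 of male pattern in a group may not. The p-values cover the spread between libraries, part of which may be technical. In bulk RNA, fewer cells that express a gene and less RNA of it per cell cannot be told apart.

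IL-15 priming raised 37 of the 41 factors in KO cells, where 23.0% of all genes were called higher, and 38 in WT cells, where 26.5% were. NKG2D then lowered 41 in KO cells, where 16.9% of all genes were called lower, and 31 in WT cells, where 10.7% were. For 21 the fall was deeper in KO by a test of the difference, which called 2.07% of all genes in that direction. The summed level of the 41 genes was 3025, 3012 and 2986 CPM in fresh KO libraries and 2652, 2550 and 2635 CPM in fresh WT libraries. In primed cells the sums were 6611, 6650 and 7213 CPM in KO and 6157, 6528 and 5851 CPM in WT. After NKG2D they were 3552, 3539 and 3402 CPM in KO and 4700, 4531 and 4744 CPM in WT. Ncl and Npm1 make up much of these sums. Without these 2 genes the sums after NKG2D were 1341, 1196 and 1133 CPM in KO and 2203, 1852 and 1795 CPM in WT, and in fresh cells 1764, 1768 and 1699 CPM in KO and 1534, 1497 and 1546 CPM in WT. On this sum, every stimulated KO library lay below all 6 fresh libraries and every stimulated WT library lay above all 6.

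**Figure D1:**
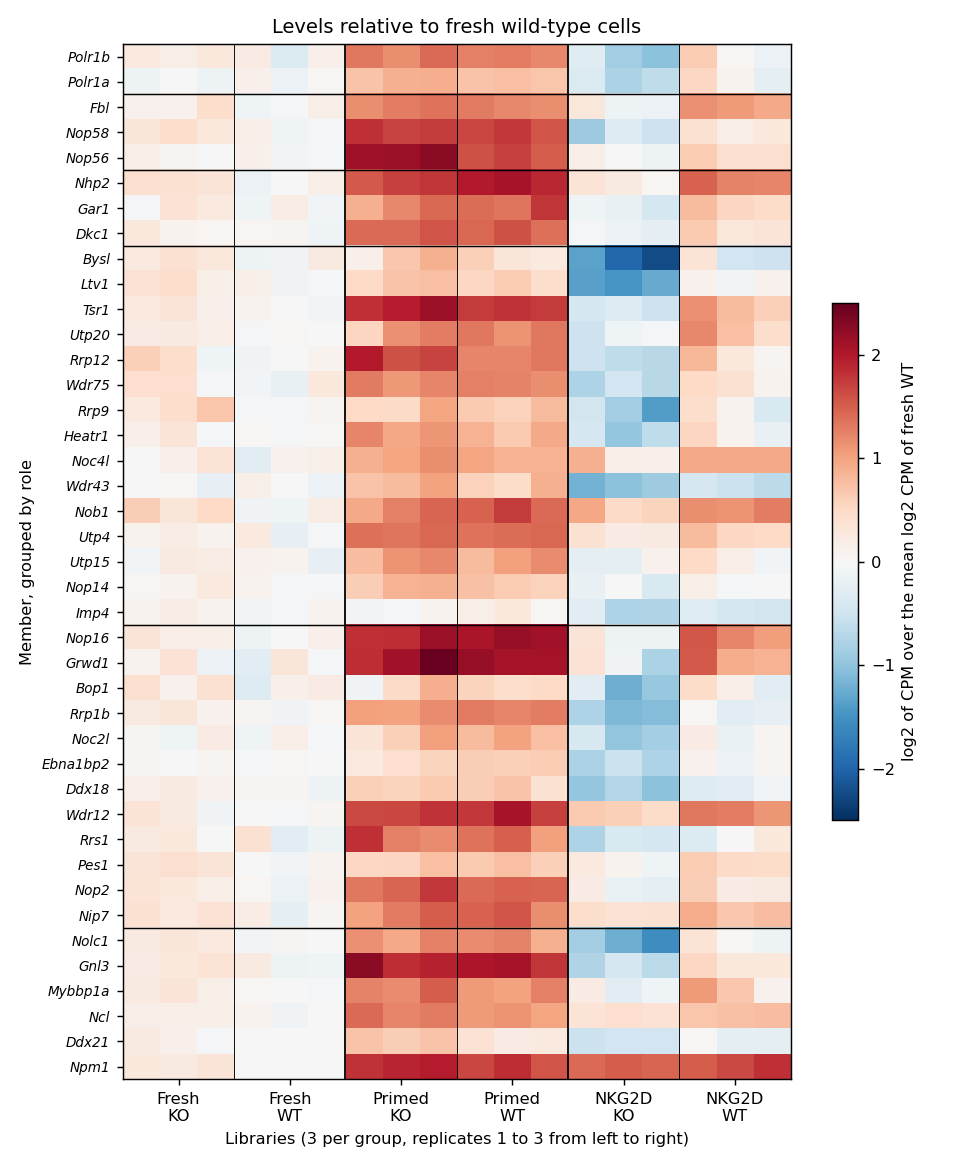
Level of each of the 41 factors (rows, grouped by role) in each of the 18 libraries (columns, KO left of WT in each condition), as log2 of CPM over the mean log2 CPM of fresh WT libraries, with red above and blue below it. Primed libraries of both genotypes are red for most rows, and after NKG2D the KO libraries are blue in many rows where the WT libraries are pale or red, Npm1 being red in both.

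IL-15 priming was compared with fresh cells. In KO cells it raised 37 of the 41 factors and lowered 0, with a median log2 fold change of 0.96 against -0.06 for all genes tested, of which 23.0% were called higher. The largest rise was that of Nop56, a core protein of box C/D snoRNPs (log2 fold change 2.12, SE 0.103, adjusted p = 2.21e-11). The 4 that did not pass in KO cells were Bop1 (0.19, adjusted p = 0.544), Bysl (0.28, adjusted p = 0.352), Imp4 (-0.12, adjusted p = 0.411) and Rrp9 (0.21, adjusted p = 0.456). By role, 2 of 2 polymerase subunits rose, 3 of 3 box C/D proteins, 3 of 3 box H/ACA proteins, 12 of 15 small subunit factors, 11 of 12 large subunit factors and 6 of 6 nucleolar organisers and helicases. The calls of Ltv1 (fresh KO replicate 1 or 3, primed KO replicate 2 or 3), Pes1 (fresh KO replicate 1 or 3, primed KO replicate 3) and Noc2l (primed KO replicate 3) were lost without the libraries named, with adjusted p between 0.052 and 0.171.

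In WT cells priming raised 38 of the 41 factors and lowered 0, with a median of 1.22 against -0.06 for all genes. Over all genes 26.5% were called higher. Nop16, a large subunit factor, rose by 2.10 on the log2 scale (adjusted p = 4.57e-09), and Nhp2, a core protein of box H/ACA snoRNPs, by 1.97 (adjusted p = 1.39e-10). The 3 that did not pass were Bop1 (0.48, adjusted p = 0.113), Bysl (0.38, adjusted p = 0.193) and Imp4 (0.14, adjusted p = 0.308). By role, 2 of 2 polymerase subunits rose, 3 of 3 box C/D proteins, 3 of 3 box H/ACA proteins, 13 of 15 small subunit factors, 11 of 12 large subunit factors and 6 of 6 nucleolar organisers and helicases. Rrp9, the U3-specific protein, rose by 0.67 in WT cells (adjusted p = 0.0169), a call lost without fresh WT replicate 1 or 2 (adjusted p = 0.0522 to 0.0537), and that of Ddx21 was lost without fresh WT replicate 1 or 2 or primed WT replicate 1 (adjusted p = 0.0513 to 0.0804). No cells cultured without IL-15 are among the 18 libraries, so IL-15 and 72 hours of culture cannot be told apart.

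NKG2D stimulation was compared with priming alone. In KO cells 41 of 41 factors fell, by a median of -1.48 on the log2 scale against 0.04 for all genes, of which 16.9% were called lower. In WT cells 31 of 41 fell, by a median of -0.66 against -0.01 for all genes, of which 10.7% were called lower. The deepest fall in both genotypes was that of Gnl3 (nucleostemin), at -2.63 in KO cells and -1.61 in WT cells (adjusted p = 2.27e-09 in KO and 7.72e-07 in WT). The 10 factors that did not pass in WT cells were Bop1, Bysl, Fbl, Mybbp1a, Nob1, Noc4l, Npm1, Pes1, Rrp9 and Utp20, with log2 fold changes between -0.59 (Rrp9) and 0.03 (Noc4l). In KO cells the same 10 ran between -2.38 (Bysl) and -0.43 (Npm1). Without NKG2D WT replicate 2, the WT calls of Ddx21, Grwd1, Heatr1, Ltv1, Ncl, Polr1a and Rrp12 were lost (adjusted p = 0.0517 to 0.108), those of Heatr1 and Polr1a also without WT replicate 3 and that of Polr1a without primed WT replicate 2. In KO the call of Noc4l was lost without NKG2D KO replicate 2 or 3 or primed KO replicate 3 (adjusted p = 0.0572 to 0.0771). The primed libraries enter both the priming and the NKG2D comparison of a genotype. The labels give no wash or plating for the primed libraries, so these steps and NKG2D itself cannot be told apart.

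**Figure D2:**
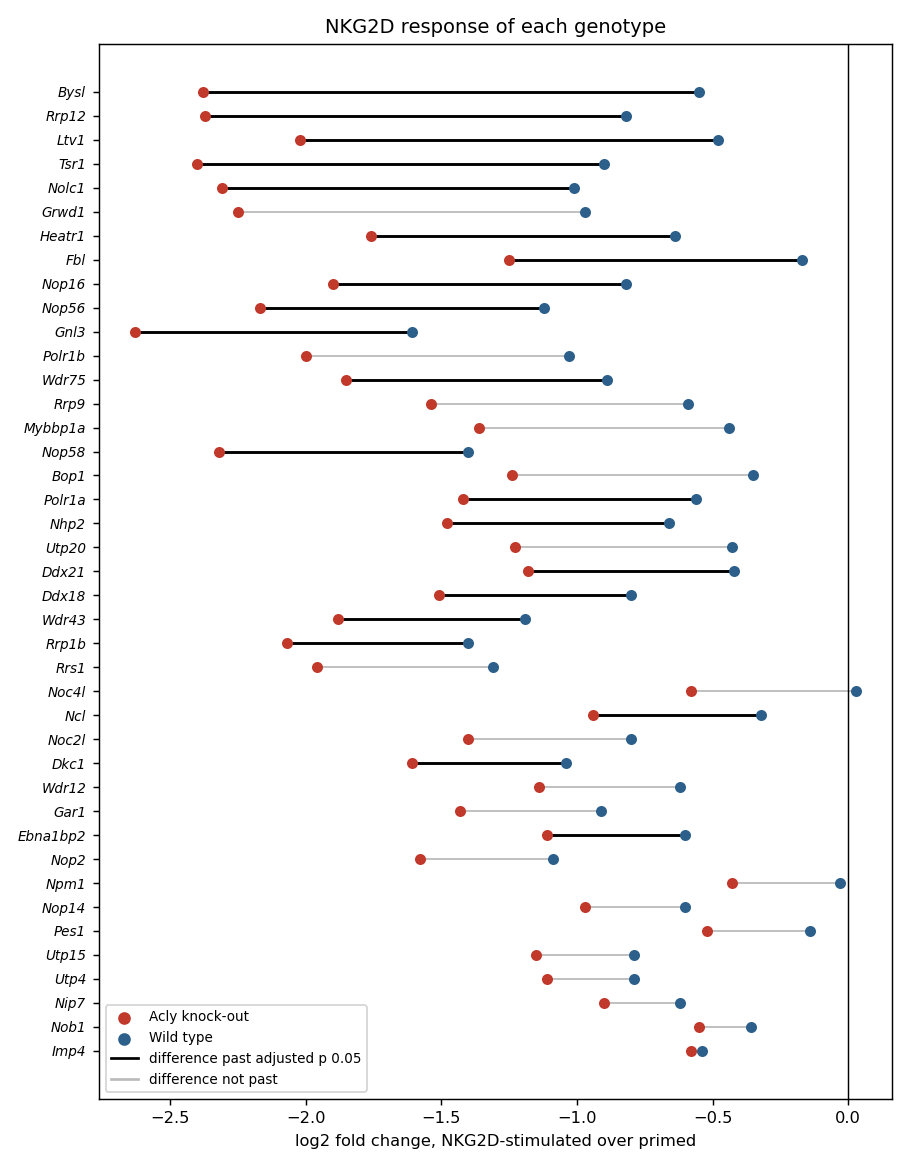
Log2 fold change of NKG2D-stimulated over primed cells for each factor, in KO (red) and WT (blue), sorted by the distance between them; a black line joins the pair where the genotype difference passed adjusted p 0.05. All red points lie left of their blue points, between -2.63 and -0.43 in KO and between -1.61 and 0.03 in WT.

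Whether the NKG2D response itself differed between genotypes was tested as a difference of differences in the same fit. It was more negative in KO cells for 21 of the 41 factors and more positive for 0, with a median difference of -0.76 against 0.05 for all genes, of which 2.07% were called lower. All 41 estimates were negative. The 21 were Polr1a; Fbl, Nop56 and Nop58; Dkc1 and Nhp2; Bysl, Heatr1, Ltv1, Rrp12, Tsr1, Wdr43 and Wdr75; Ddx18, Ebna1bp2, Nop16 and Rrp1b; and Ddx21, Gnl3, Ncl and Nolc1. The smallest p-values were those of Ltv1 (difference -1.54, SE 0.175, adjusted p = 0.000392), Tsr1 (-1.51, SE 0.186, adjusted p = 0.000392) and Nop56 (-1.05, SE 0.14, adjusted p = 0.000702). With the replicate number as a block within each genotype, 14 of the 21 were called. Of the 21 calls, 14 held without any 1 library. Heatr1 and Wdr75 were lost without NKG2D WT replicate 1 (differences -0.89 and -0.87, adjusted p = 0.0537 and 0.0636). Dkc1, Ebna1bp2, Polr1a, Rrp1b and Wdr43 were each lost without any 1 of 7 to 10 of the 12 libraries, NKG2D WT replicate 1 among them, with adjusted p between 0.0505 and 0.124.

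Setting stimulated cells against fresh cells of the same genotype, a comparison added after the data were seen, showed where the levels ended. In KO cells 23 of the 41 factors were called below their fresh level after NKG2D and 3 were called above it, with a median of -0.50 against -0.03 for all genes. In WT cells 18 were called above their fresh level and 2 below, with a median of 0.34 against -0.01 for all genes. Over all genes 20.0% were called lower and 20.7% higher in KO, and 26.3% were called higher and 26.1% lower in WT. Dkc1, Pes1 and Tsr1 were called below fresh in KO and above fresh in WT; in KO, Dkc1 and Pes1 each lost the call without any 1 of 5 of the 6 libraries (adjusted p up to 0.21 and 0.291), while Tsr1 kept it. The KO calls of Ncl, Polr1a, Rrs1 and Wdr12 were also lost without 1 or more of the 6 libraries (adjusted p = 0.053 to 0.122), and in WT that of Gar1 (adjusted p = 0.0668 to 0.101). Scaling by library totals alone gave 19 lower and 6 higher in KO and 2 lower and 19 higher in WT.

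Between genotypes, most factors were called after NKG2D: 32 of the 41 were lower in KO cells than in WT cells and 0 were higher. The median log2 fold change was -0.74, against 0.03 for all genes tested, and the members ran between -1.64 (Bysl) and -0.19 (Imp4). Over all genes 9.47% were called lower. Every KO library lay below every WT library for 36 factors, which was so for 17.1% of all genes. The 5 factors with overlap were Bop1, Imp4, Mybbp1a, Nop14 and Utp15. Of all genes, 1302 were higher and 1408 lower. With library totals alone as the scale, the median of all genes was 0.15 and their split was 2113 higher and 1069 lower, and 29 factors were lower and 0 higher. In the authors' deposited table, 38 factors were lower and 0 higher, where 22.4% of its 13578 genes were lower.

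By role, the 32 were 2 of 2 polymerase I subunits (median -0.83), 3 of 3 box C/D proteins (-0.84), 3 of 3 box H/ACA proteins (-0.84), 10 of 15 small subunit factors (-0.84), 9 of 12 large subunit factors (-0.70) and 5 of 6 nucleolar organisers and helicases (-0.53). The 9 that did not pass were Imp4, Nip7, Noc4l, Nop14, Nop2, Npm1, Rrs1, Utp15 and Utp4, with adjusted p between 0.052 and 0.291. Of the 32 calls, 26 held without any 1 library. Without NKG2D WT replicate 1, the highest WT library for 34 of the 41 factors, 26 were lower, and Ddx21 (-0.26, adjusted p = 0.0773), Wdr43 (-0.44, adjusted p = 0.0513), Bop1, Gar1, Mybbp1a and Nob1 were lost. Of these, Bop1 was also lost without KO replicate 2 or 3, Gar1 without KO replicate 3, Mybbp1a without KO replicate 2, and Nob1 without KO replicate 2 or 3 or WT replicate 3 (adjusted p = 0.051 to 0.109 over the 4 genes and all their losses).

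**Figure D3:**
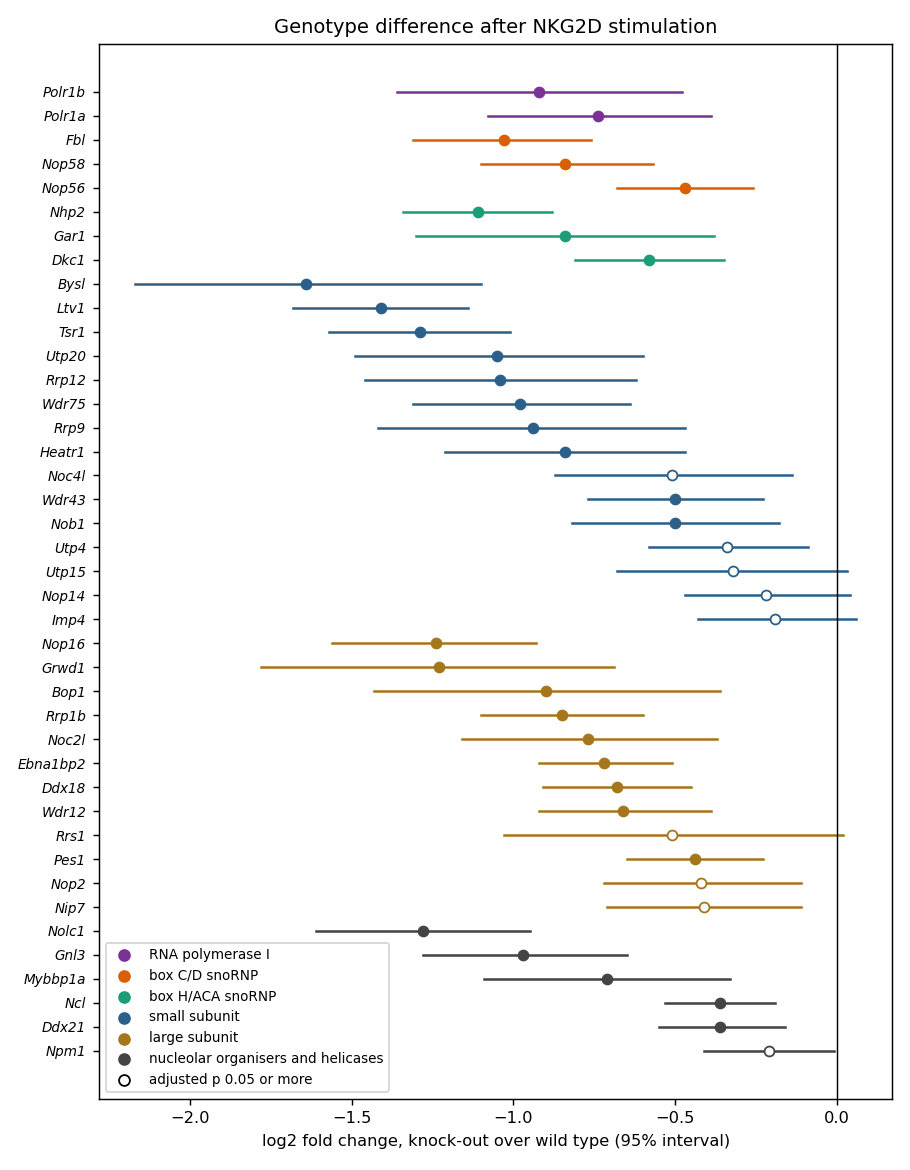
Log2 fold change of KO over WT after NKG2D for each factor with its 95% interval, coloured by role; filled points passed adjusted p 0.05 and open points did not. All 41 points lie left of 0, between -1.64 (Bysl) and -0.19 (Imp4).

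In primed cells 3 factors passed between genotypes, all higher in KO: Nop56, Ddx21 and Ncl. The median over the 41 was 0.05 against -0.02 for all genes, of which 15.5% were called in either direction. In fresh cells 0 of the 41 passed edgeR's test in either direction, where 0.0673% of all genes did. Their median was 0.20 against 0.01 for all genes. Positive estimates were found for 39 of the 41, and for 7666 of all 14864 genes. An unadjusted p below 0.05 in edgeR's test was found for 7 of the 41, and for 1903 of all 14864 genes. Every fresh KO library lay above every fresh WT library for 18 factors, which was so for 14.1% of all genes. Limma voom with quality weights called 8 factors higher and 0 lower in fresh cells (6.08% of all genes higher), DESeq2 called 0, and edgeR on the fresh libraries alone called 1. The authors' deposited table held 8 higher and 0 lower in fresh cells, where 7.14% of its genes were higher, and 7 higher and 0 lower in primed cells, where 31.2% of its genes were called in either direction.

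Polr1a encodes the largest subunit of RNA polymerase I (chromosome 6, 71909053 to 71984935, plus strand, mm10). It measured 17, 18.8 and 17 CPM in fresh KO cells and 20.3, 16.7 and 18.9 in fresh WT cells. Primed cells held 30.5, 34.4 and 35 CPM in KO and 30.4, 31.2 and 30.1 in WT. After NKG2D it was 14.5, 10.8 and 11.9 CPM in KO and 26.5, 19.7 and 15.7 in WT. The genotypes overlapped in fresh and primed cells and did not after NKG2D. The difference after NKG2D was -0.74 (SE 0.165, adjusted p = 0.00499), and that in the NKG2D response was -0.86 (adjusted p = 0.0483), a call lost without any 1 of 9 libraries, with KO replicate 1 and WT replicate 3 of the stimulated cells and KO replicate 1 of the primed cells as the exceptions (adjusted p = 0.0587 to 0.124). Polr1b, the second largest subunit, was likewise lower in KO after NKG2D (-0.92, adjusted p = 0.00545).

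Fbl encodes fibrillarin, the methyltransferase of box C/D snoRNPs (chromosome 7, 28169710 to 28179269, plus strand, mm10). Fresh cells held 39.7, 39.6 and 50 CPM in KO and 34.4, 35.8 and 40.6 in WT, and primed cells 82.8, 89.1 and 94.1 in KO and 90.7, 84.2 and 82.8 in WT. After NKG2D, Fbl measured 45.1, 33.8 and 33.3 CPM in KO and 81.8, 76.8 and 70.9 in WT. The stimulated KO libraries lay close to the fresh range, and the stimulated WT libraries lay just under the primed range. The genotype difference after NKG2D was -1.03 (SE 0.129, adjusted p = 4.75e-05), its NKG2D response was -1.25 in KO (adjusted p = 1.1e-06) and -0.17 in WT (adjusted p = 0.398), and these responses differed by -1.08 (adjusted p = 0.00332).

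Nop56, the scaffold protein beside fibrillarin (chromosome 2, 130274430 to 130279313, plus strand, mm10), had a genotype order in primed cells opposite to that after NKG2D. It measured 110, 104 and 98.6 CPM in fresh KO cells and 109, 95 and 96.1 in fresh WT cells. Primed cells held 436, 441 and 479 CPM in KO and 300, 325 and 285 in WT, with a wide gap between the genotypes. After NKG2D the values were 110, 101 and 91.2 CPM in KO and 156, 132 and 132 in WT, so that the order of the genotypes was turned round. KO was higher in primed cells (log2 fold change 0.58, SE 0.0986, adjusted p = 0.000782) and lower after NKG2D (log2 fold change -0.47, SE 0.099, adjusted p = 0.00309). Its priming response was larger in KO by 0.52 (adjusted p = 0.0246), a call lost without fresh KO replicate 3 or primed WT replicate 1 (adjusted p = 0.0536 to 0.065). Nop58, its partner in the particle, was lower in KO after NKG2D (-0.84, adjusted p = 0.00023).

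Nhp2, a core protein of box H/ACA snoRNPs and of telomerase (chromosome 11, 51619735 to 51623714, plus strand, mm10), had a genotype order that differed between conditions. Fresh cells held 72.1, 70.9 and 67.6 CPM in KO and 49.2, 54.4 and 60.2 in WT, every KO library above every WT library, a difference that did not pass the test (0.36, adjusted p = 0.209). Primed cells held 158, 179 and 188 CPM in KO and 214, 227 and 201 in WT, every KO library below every WT library, which did not pass either (-0.29, adjusted p = 0.0749). After NKG2D Nhp2 measured 68.5, 63.3 and 56.2 CPM in KO and 152, 128 and 126 in WT and was lower in KO (log2 fold change -1.11, SE 0.108, adjusted p = 4.43e-06), at 46.3% of the WT level. Both responses differed by genotype: that to priming by -0.65 (adjusted p = 0.0115, and 0.0518 without primed WT replicate 2) and that to NKG2D by -0.82 (adjusted p = 0.00645). Dkc1, the pseudouridine synthase of the particle, and Gar1, another core protein, were lower in KO after NKG2D by -0.58 (adjusted p = 0.0014) and -0.84 (adjusted p = 0.012). Nhp2 overlaps Rmnd5b on the other strand.

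Ltv1 encodes a factor of pre-40S particles needed for late small subunit assembly (chromosome 10, 13178140 to 13193168, minus strand, mm10). It measured 28.1, 29.5 and 24.3 CPM in fresh KO cells and 24.2, 20.5 and 21 in fresh WT cells, then 30.9, 35.6 and 36.7 in primed KO cells and 31.3, 33.7 and 29.5 in primed WT cells. After NKG2D it was 8.51, 7.85 and 9.13 CPM in KO and 23.4, 20.9 and 23.5 in WT. Each stimulated KO library was below each of the other 15 libraries of the study, while stimulated WT libraries were in the fresh range. The genotype difference was -1.41 (95% interval -1.68 to -1.14, adjusted p = 2.32e-06). Against fresh cells the difference after NKG2D was -1.68 in KO (adjusted p = 8.86e-09) and 0.04 in WT (adjusted p = 0.781).

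Tsr1, a GTPase-like protein that holds pre-40S particles in an inactive state (chromosome 11, 74898071 to 74909342, plus strand, mm10), measured 22.1, 23.2 and 20.3 CPM in fresh KO cells and 19.6, 18.4 and 17.7 in fresh WT cells. Primed cells held 65.5, 72.6 and 81.9 CPM in KO and 62.1, 64.5 and 62.5 in WT. Stimulated cells held 13.7, 14.9 and 13 CPM in KO and 41.1, 32.2 and 28 in WT. Stimulated KO libraries were thus below all 6 fresh libraries and stimulated WT libraries above all 6. The 2 genotypes ended on opposite sides of fresh cells, at -0.66 in KO (adjusted p = 0.000712) and 0.86 in WT (adjusted p = 3.39e-05).

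Nob1, the endonuclease that makes the mature end of 18S RNA (chromosome 8, 107412486 to 107425051, minus strand, mm10), differed in how priming moved it. Fresh cells held 42.7, 34.4 and 39.7 CPM in KO and 26.4, 26 and 31.9 in WT without overlap (0.47, adjusted p = 0.22). Primed cells held 54.3, 67.2 and 76.6 CPM in KO and 77.3, 93.4 and 74.2 in WT, with overlap, and stimulated cells 54.5, 39.1 and 41.4 in KO and 62.5, 61.1 and 67.8 in WT, with none. The priming response was smaller in KO by -0.78 (adjusted p = 0.028), which was lost without any 1 of 7 of the 12 libraries (adjusted p = 0.0585 to 0.111). After NKG2D the genotype difference was -0.50 (adjusted p = 0.0275), lost without KO replicate 2 or 3 or WT replicate 1 or 3 (adjusted p = 0.0563 to 0.109).

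Wdr43 and Imp4 were the 2 factors called below fresh cells in WT as well, where 7 of the 41 estimates were negative. Wdr43, a subunit of the early UtpA complex of the processome (chromosome 17, 71615895 to 71659031, plus strand, mm10), measured 74.1, 74.8 and 63.6 CPM in fresh KO cells and 81.3, 73.5 and 66.5 in fresh WT cells, and 120, 127 and 148 in primed KO cells and 109, 101 and 137 in primed WT cells. After NKG2D it was 32.4, 35.9 and 39.5 CPM in KO and 54.7, 50.7 and 47 in WT, with no overlap. Against fresh cells it changed by -0.98 in KO (adjusted p = 9.75e-06) and by -0.54 in WT (adjusted p = 0.00204).

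Imp4, a U3 snoRNP protein (chromosome 1, 34439851 to 34449356, plus strand, mm10), did not pass the priming test in either genotype, like Bop1 and Bysl. It measured 114, 122 and 114 CPM in fresh KO cells and 103, 105 and 115 in fresh WT cells, and 102, 105 and 114 in primed KO cells and 119, 129 and 110 in primed WT cells. Stimulated cells held 88, 63.4 and 63.6 CPM in KO and 87.2, 79.6 and 78.2 in WT, where KO replicate 1 exceeded all WT libraries. Both NKG2D responses were called, at -0.58 in KO (adjusted p = 0.000842) and -0.54 in WT (adjusted p = 0.00278). The interval of its genotype difference after NKG2D was -0.43 to 0.06.

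Among the other small subunit factors, Bysl (the pre-40S protein bystin) had the largest genotype difference after NKG2D of the 41 and one of the widest spreads. It measured 14.2, 9.3 and 7.66 CPM in KO and 45.6, 25.9 and 25.2 in WT (log2 fold change -1.64, SE 0.253, adjusted p = 0.00031). The U3 protein Rrp9 (-0.94, adjusted p = 0.00757), Utp20 (-1.05, adjusted p = 0.00234), the pre-40S export factor Rrp12 (-1.04, adjusted p = 0.00167) and the UtpA subunits Wdr75 (-0.98, adjusted p = 0.000442) and Heatr1 (-0.84, adjusted p = 0.00306) were lower in KO too. The UtpA subunits Utp4 and Utp15 measured -0.34 (adjusted p = 0.0563) and -0.32 (adjusted p = 0.204). Nop14 and its partner Noc4l measured -0.22 (adjusted p = 0.239) and -0.51 (adjusted p = 0.052).

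**Figure D4:**
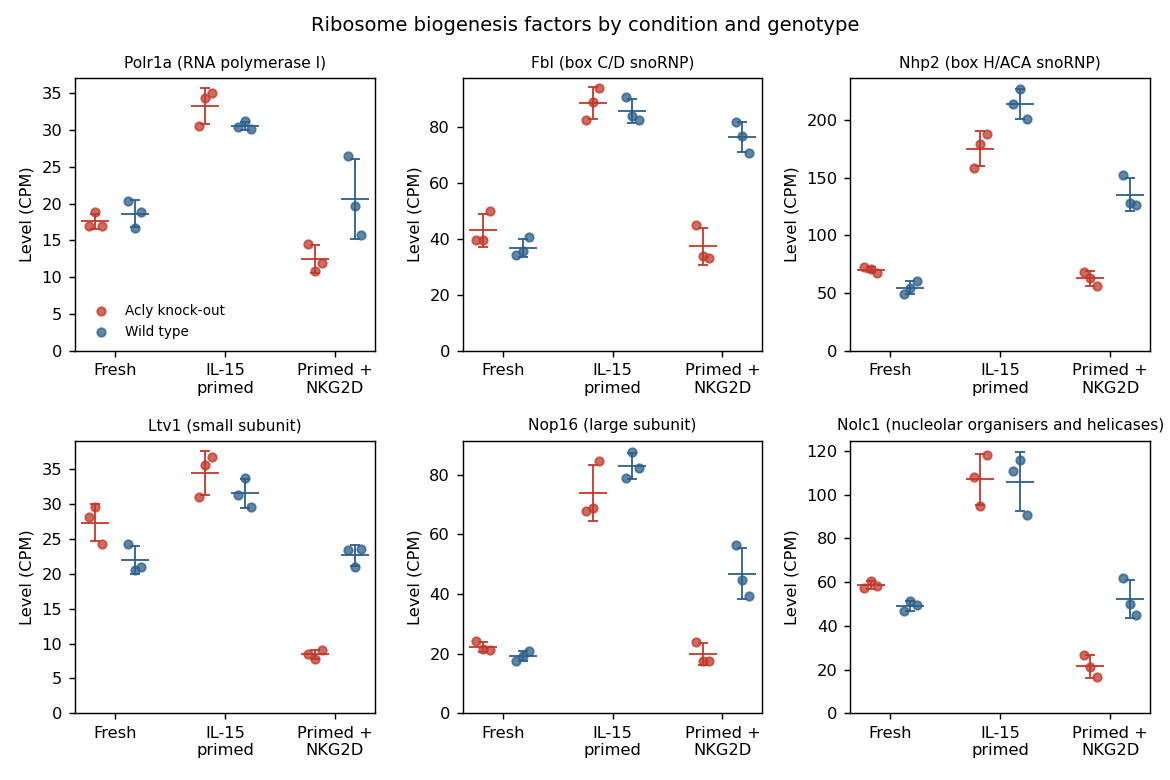
CPM of 1 factor per role in every library (points), with the mean and SD of each group (lines, n = 3), KO in red to the left of WT in blue. Polr1a, Fbl, Nhp2, Ltv1, Nop16 and Nolc1 have every KO point under every WT point after NKG2D, and Polr1a, Ltv1 and Nolc1 in stimulated KO cells lie under every fresh KO point.

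Nop16 encodes a nucleolar protein of pre-60S particles (chromosome 13, 54584185 to 54590090, minus strand, mm10). Fresh cells held 24.2, 21.6 and 21.2 CPM in KO and 17.7, 19.2 and 21 in WT, and primed cells 67.9, 69 and 84.6 in KO and 79, 87.7 and 82.3 in WT. After NKG2D it measured 24.1, 17.6 and 17.7 CPM in KO and 56.5, 44.7 and 39.5 in WT. Against fresh cells the difference did not pass in stimulated KO cells (-0.17, adjusted p = 0.387), and stimulated WT cells were higher (1.28, adjusted p = 1.9e-06). The genotype difference was -1.24 (SE 0.151, adjusted p = 3.85e-05).

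Pes1, Bop1 and Wdr12 form the PeBoW complex, which large subunit assembly needs, and their transcripts did not move alike. Pes1 (chromosome 11, 3963975 to 3980004, plus strand, mm10) measured 152, 159 and 152 CPM in fresh KO cells and 120, 116 and 128 in fresh WT cells. Primed cells held 174, 176 and 203 CPM in KO and 190, 204 and 183 in WT, and stimulated cells 144, 129 and 113 in KO and 189, 168 and 167 in WT. KO lay above WT in fresh cells and below it after NKG2D, in each case without overlap. Pes1 had the smallest p of the 41 in fresh cells, where the difference did not pass (0.34, adjusted p = 0.206), and after NKG2D it was lower in KO (-0.44, adjusted p = 0.00467).

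Wdr12 (chromosome 1, 60069785 to 60098645, minus strand, mm10) measured 25.8, 23.7 and 19 CPM in fresh KO cells and 20, 19.7 and 21.1 in fresh WT cells, 63.9, 64.3 and 71.2 in primed KO cells and 68.8, 84.9 and 66.3 in primed WT cells. Stimulated cells held 32, 30.7 and 28 CPM in KO and 50.5, 49.2 and 43.5 in WT, both above fresh cells. Its priming rise was 1.55 in KO (adjusted p = 2.78e-08) and 1.85 in WT (adjusted p = 2.68e-09), where that of Bop1 was 0.19 in KO and 0.48 in WT with neither past the threshold. Wdr12 in stimulated KO cells was above fresh KO cells (0.41, adjusted p = 0.0157, and 0.32 with adjusted p = 0.0752 without fresh KO replicate 3). It was lower in KO than in WT after NKG2D (-0.66, adjusted p = 0.00171).

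Among the other large subunit factors, Grwd1, a chaperone for a ribosomal protein, measured -1.23 after NKG2D (adjusted p = 0.00303). Rrp1b (-0.85, adjusted p = 0.00013), Noc2l (-0.77, adjusted p = 0.00877), Ebna1bp2 (-0.72, adjusted p = 9.86e-05) and the helicase Ddx18 (-0.68, adjusted p = 0.000485) were lower in KO. Those that did not pass were the 28S RNA methyltransferase Nop2 (-0.42, adjusted p = 0.0585), Nip7 (-0.41, adjusted p = 0.0556) and Rrs1 (-0.51, adjusted p = 0.175), which brings in the 5S particle. Rrs1 was measured at 2.05 to 12.4 CPM over the 18 libraries and Gar1 at 2.2 to 10.2 CPM, the smallest CPM of the 41, so their values rest on the fewest counts.

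Nolc1 encodes Nopp140, which escorts snoRNPs between Cajal bodies and nucleoli (chromosome 19, 46075863 to 46085530, plus strand, mm10). Fresh cells held 57.2, 60.7 and 58.1 CPM in KO and 46.7, 51.2 and 49.6 in WT, primed cells 108, 94.8 and 118 in KO and 111, 116 and 90.6 in WT. Stimulated cells held 26.9, 21 and 16.7 CPM in KO and 62, 50.2 and 44.9 in WT. Each stimulated KO library was below each fresh library, and the WT libraries straddled the fresh range. The genotype difference was -1.28 (SE 0.157, adjusted p = 4.2e-05), and the NKG2D response differed by -1.30 (adjusted p = 0.00342).

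Ncl encodes nucleolin, which binds nascent ribosomal RNA (chromosome 1, 86344719 to 86359400, minus strand, mm10). It measured 550, 555 and 547 CPM in fresh KO cells and 525, 466 and 489 in fresh WT cells, and 1319, 1141 and 1205 in primed KO cells and 1031, 1071 and 975 in primed WT cells. In stimulated cells the values were 626, 655 and 634 CPM in KO and 799, 817 and 843 in WT. KO was above WT in every primed library and below it in every stimulated one. The primed difference was 0.25 (adjusted p = 0.0423), lost without primed KO replicate 1 or 3 or any primed WT replicate (adjusted p = 0.0507 to 0.145), and that after NKG2D was -0.36 (adjusted p = 0.0049).

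Npm1 encodes nucleophosmin, an abundant nucleolar chaperone (chromosome 11, 33152287 to 33163206, minus strand, mm10). Fresh cells held 710, 689 and 740 CPM in KO and 593, 587 and 600 in WT, and primed cells 2080, 2219 and 2311 in KO and 1894, 2122 and 1753 in WT. Stimulated cells held 1584, 1688 and 1635 CPM in KO and 1697, 1862 and 2106 in WT. Unlike most of the 41 it stayed high in both genotypes after NKG2D, at 1.20 over fresh in KO (adjusted p = 2.27e-08) and 1.67 in WT (adjusted p = 3.52e-10). Its genotype difference after NKG2D did not pass (-0.21, 95% interval -0.41 to -0.01, adjusted p = 0.149).

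Ddx21, a helicase of polymerase I transcription and snoRNA release (chromosome 10, 62580251 to 62602281, minus strand, mm10), measured 125, 117 and 105 CPM in fresh KO cells and 107, 109 and 107 in fresh WT cells. Primed cells held 177, 164 and 176 CPM in KO and 139, 124 and 128 in WT, without overlap. With NKG2D the level was 74.2, 77.2 and 77.1 CPM in KO and 110, 90.7 and 91.3 in WT, again without overlap and in the opposite order. KO was higher in primed cells (log2 fold change 0.41, SE 0.0929, adjusted p = 0.00682) and lower after NKG2D (log2 fold change -0.36, SE 0.0932, adjusted p = 0.0133; -0.26 and adjusted p = 0.0773 without WT replicate 1). The NKG2D response differed by -0.76 (adjusted p = 0.00423). Gnl3 (-0.97, adjusted p = 0.00031) and Mybbp1a (-0.71, adjusted p = 0.0107), a nucleolar protein bound to pre-ribosomes, were lower in KO after NKG2D.

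Per kilobase of exon, Npm1 was the most abundant of the 41 in all 6 groups, at 614 CPM per kb in stimulated KO cells and 709 in stimulated WT cells. Nhp2 and Ncl followed with 54.7 and 62.6 CPM per kb in stimulated KO cells and 118 and 80.5 in stimulated WT cells. Utp20 was the least abundant, with 0.578 CPM per kb in stimulated KO cells and 1.19 in stimulated WT cells. The exon lengths are unions over all annotated transcripts, which understates genes with long minor transcripts.

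The 41 genes lie on 17 chromosomes. Of these, 7 hold a snoRNA gene inside them (Dkc1, Gnl3, Ncl, Nop56, Nop58, Tsr1 and Wdr43), so the modification guides are made from the same transcripts as the proteins. All 7 were lower in KO after NKG2D, as were 32 of the 41 factors and 9.47% of all genes. Their median was -0.58, against -0.74 for the 41. All 7 were among the 21 whose NKG2D response differed, where 2.07% of all genes were called lower. Their median difference was -0.92, against -0.76 for the 41. The response calls of Dkc1 and Wdr43 were lost without any 1 of 10 and 9 of the 12 libraries. The call of Wdr43 after NKG2D was lost without NKG2D WT replicate 1. Of the 41, 19 overlap a gene on the other strand. Strand use in the counting is not stated by the labels, and without it the reads of such a pair cannot be told apart.

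The RefSeq starts of the genes were searched for 3 short motifs because the factors moved together, in windows of 250 bases before to 50 bases after each start from RefSeq (GRCm38.p6), which were given for 36 of the 41. The letters CACGTG, the E-box that MYC binds and which reads the same on both strands, were found in 10 of the 36 (27.8%) and in 11.7% of 9967 tested genes with a window. CCGGAA on either strand, the core of ETS sites, was found in 44.4% against 32.3%, and GGGCGG on either strand, the GC box, in 77.8% against 66.8%. The E-box stood before the start in Imp4 and Nop2 and within 50 bases after it in Grwd1, Ltv1, Mybbp1a, Pes1, Tsr1, Utp20, Utp4 and Wdr43. For the 5 factors with an E-box whose levels are given above by library, 30 bases around it are shown 5′ to 3′ on the strand of the gene, with the E-box in capitals.
Ltv1 (chr10:13193092-13193121, - strand): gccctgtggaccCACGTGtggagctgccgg
Tsr1 (chr11:74898092-74898121, + strand): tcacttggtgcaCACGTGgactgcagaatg
Wdr43 (chr17:71616220-71616249, + strand): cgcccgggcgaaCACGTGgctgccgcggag
Pes1 (chr11:3963965-3963994, + strand): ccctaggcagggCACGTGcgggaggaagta
Imp4 (chr1:34439696-34439725, + strand): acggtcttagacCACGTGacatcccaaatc
Counted from the RefSeq start that the window is built on, which can differ from the outer end of the GENCODE gene given above, the centre of the E-box lies 31 bases inside Ltv1, 27 inside Tsr1, 20 inside Wdr43, 5 inside Pes1 and 118 before Imp4. Ltv1 and Tsr1 had the smallest p-values for the genotype difference in the NKG2D response and Imp4 differed by -0.04 (adjusted p = 0.932). The rule that named genes used these p-values, so the 5 genes cannot show whether the letters go with the response. That was not tested. A match of letters is a description and not a bound site.

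Myc itself measured 97.3, 93.3 and 107 CPM in fresh KO cells and 58.2, 75.7 and 82.3 in fresh WT cells, 244, 225 and 267 in primed KO cells and 205, 165 and 211 in primed WT cells. NKG2D-stimulated libraries held 18.8, 8.65 and 14.3 CPM in KO and 29.8, 19.5 and 18.9 in WT, where KO replicate 1 was close to the lowest WT library. Myc rose with priming (1.31 in KO and 1.43 in WT) and fell after NKG2D (-4.14 in KO and -3.09 in WT), each past the threshold. The genotype difference after NKG2D was -0.71 (adjusted p = 0.0349), and that in the NKG2D response did not pass (-1.05, adjusted p = 0.0719). Its part in the levels of the factors was not tested.

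The same pathways hold many more genes, of which 125 in 5 lists were tested. After NKG2D 45 of the 125 were lower in KO and 1 was higher, with a median of -0.31, where 9.47% of all genes were lower and 8.76% higher. The lower ones were 23 of 48 other large subunit factors, 13 of 40 other small subunit factors, 4 of 11 other snoRNP and nucleolar factors, 3 of 12 exosome genes and 2 of 14 other genes of RNA polymerase I and its transcription. The medians of these lists were -0.36, -0.27, -0.48, -0.21 and -0.06 in that order, so the polymerase I list lay near all genes (0.03). Rrp15 (-1.45, adjusted p = 3.38e-06) and Mrto4 (-1.21, adjusted p = 1.38e-05), both of the large subunit, and Pno1 (-1.31, adjusted p = 0.000116) and the 18S methyltransferase gene Emg1 (-0.62, adjusted p = 0.000681) of the small subunit had the smallest p-values of their lists. Among snoRNP factors Znhit6, needed for box C/D assembly (-1.20, adjusted p = 0.000176), and Nop10, the fourth core protein of box H/ACA particles (-0.55, adjusted p = 0.000907), were lower. Polr1e (-0.80, adjusted p = 0.000601) and Cd3eap (-0.80, adjusted p = 0.00416), which encode a pair of polymerase I subunits, and Mphosph6 (-0.47, adjusted p = 0.00723) and Exosc5 (-0.47, adjusted p = 0.0136) of the exosome were lower as well. The exception was Pih1d1, a subunit of the R2TP chaperone complex, which was higher in KO (0.61, adjusted p = 0.0106).

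Over the other comparisons, priming raised 66 and lowered 7 of the 125 in KO cells, where 23.0% of all genes were called higher and 25.7% lower. It raised 63 and lowered 7 in WT cells, against 26.5% and 27.2% of all genes. NKG2D lowered 82 and raised 7 in KO, against 16.9% and 18.4% of all genes, and lowered 48 and raised 2 in WT, against 10.7% and 9.20%. In the polymerase I list, 4 of 14 were lower and 4 higher in KO. The NKG2D response differed by genotype for 16 of the 125, all more negative in KO, against 2.07% of all genes. Ubtf, which bends ribosomal DNA for polymerase I, fell with priming in WT (-0.83, adjusted p = 3.45e-05), against the direction of most factors. Polr1c, a subunit shared by RNA polymerases I and III, rose after NKG2D in KO (0.74, adjusted p = 0.000694) and in WT (0.54, adjusted p = 0.0129).

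Markers of cell type and of cycling were read beside these results. Summed over 8 NK-cell markers, the level after NKG2D was 3814 to 4488 CPM in KO and 4154 to 5111 CPM in WT, with 3 of the 8 called lower in KO and 1 higher and log2 fold changes between -1.65 and 0.51. Summed over 8 markers of proliferating cells, it was 1944 to 2036 CPM in KO and 1390 to 1566 CPM in WT after NKG2D, with 4 of the 8 called higher in KO and 0 lower, and 2557 to 2688 CPM in KO and 2011 to 2313 CPM in WT in primed cells. Of these 8, 7 had a positive estimate in KO after NKG2D and 1 a negative one. The T-cell sum after NKG2D was 26.8 to 27.1 CPM in KO and 41.7 to 66.8 CPM in WT, with 2 of 5 tested markers lower in KO and 0 higher. Most of it was Cd3g, Trac and Cd3d. Cd3g measured 8.72, 10.1 and 12.9 CPM in KO and 34.6, 20.5 and 26.3 in WT. Trac measured 12.2, 10.8 and 10.1 CPM in KO and 17.7, 13.4 and 15.3 in WT. Cd3d measured 3.65, 3.69 and 3.46 CPM in KO and 11.3, 6.29 and 6.83 in WT. Cd8a was at 0 in all 6 libraries and Cd4 at 0 in 5 of them. Of all genes, 9.47% were called lower and 8.76% higher in KO after NKG2D. The myeloid sum was 278 to 346 CPM in KO and 166 to 184 CPM in WT, with 2 of 5 tested markers higher in KO and 0 lower, nearly all of it Itgam, which NK cells also express, and Cd68, with Lyz2 at 0 in all 6. In fresh cells the erythroid sum was 16.4 to 18.1 CPM in KO and 115 to 201 CPM in WT. The part of these differences in the results was not tested.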

How the data were processed

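RNA of sorted YFP+ splenic NK cells was extracted with a Qiagen kit and made into libraries with the Takara-Clontech SMARTer kit, per the labels' protocols. Per the submitters' processing notes, mm10, bcl2fastq, DRAGEN and edgeR were used. Versions, aligner settings, annotation and strand use were not given in the sources used here. Deposited gene values are expected counts, not scaled between libraries, of which 30% of those above 0 are not whole; they were rounded. Repeated entries of 168 of 55487 identifiers in 55774 rows were identical and were reduced to 1 each. Without molecular barcodes, copies of a molecule count as separate reads. The authors' deposited tables, with column names that limma writes per the file headers, give log2 fold changes and p-values and were used beside the results alone. The 54 columns of per-sample values in those tables were not used.

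The test was edgeR 4.0.16 (quasi-likelihood, TMM factors, filterByExpr, R 4.3.3) with 1 mean per group over all 18 libraries, 12 residual and 5.14 prior degrees of freedom and a common biological coefficient of variation of 0.234. It was run on simulated data with known changes that were larger than the genotype differences of the factors after NKG2D. That run gives no measure of how differences of their size are found. SE is the absolute log2 fold change over the root of F, and intervals are 95%. Of 11 comparisons, 2 (stimulated against fresh) were added after the data were seen. Alternatives were DESeq2 1.42.0, limma 3.58.1 voom with quality weights, RLE factors, library totals alone, no filter, the compared libraries alone, replicate blocks, each library left out, sex pattern as a covariate and leaving out 2 primed libraries together, the last 2 chosen after seeing the data. The precision of a value is limited by the 3 libraries per group and, for the least counted genes, by their depth.

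The members and the lists of other pathway genes and markers were chosen with earlier results of these data known. Genes given library by library were named by this rule: the smallest p of each role after NKG2D, the 3 smallest p in fresh cells, in primed cells and in each difference of response, and genes called against the direction of most. The other factors are given by fold change. Of these, Bysl and Gnl3, named for extreme values, were chosen after their values were seen. Gene coordinates are from GENCODE vM21 (mm10) and windows around gene starts from RefSeq (GRCm38.p6).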

Additional observations from a re-analysis of the deposited data

Results flagged for a closer look

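The response to NKG2D differed between KO and WT cells, by the test of the difference itself, for 21 of the 41 factors, all with a deeper fall in KO. Of all genes 2.07% were called in that direction. With the replicate number as a block within each genotype, 14 of the 21 were called, and 14 with the compared libraries alone. Among those given library by library, the difference in log2 fold change, KO minus WT, was -1.54 for Ltv1, -1.51 for Tsr1, -1.30 for Nolc1, -1.08 for Fbl, -1.08 for Nop16 and -1.05 for Nop56. It was -0.86 for Polr1a, -0.82 for Nhp2, -0.76 for Ddx21, -0.69 for Wdr43 and -0.61 for Ncl. The calls of Polr1a and Wdr43 were each lost without any 1 of 9 of the 12 libraries, and those of the other 9 held without any 1 library.

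The response to priming differed for 3 factors. Nop56 rose more in KO by 0.52, and Nhp2 and Nob1 rose less in KO, by -0.65 and -0.78. Each of these 3 calls was lost without at least 1 library, and of all genes 10.5% were called in this comparison in either direction. With the replicate number as a block within each genotype, 1 of the 3 was called.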

How the results depend on the processing

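No member called in a comparison changed sign under any alternative run. A tally of 1520 single-gene values covers only a part of the member calls and runs. In it, 1425 kept direction and call, 95 kept direction and lost the call and 0 reversed. Over all called members, more calls than these 95 were lost when 1 library was left out. Counts of called factors moved by 1.5 times or more in these cases. In fresh cells the count of 0 was 8 with limma voom and 1 with the compared libraries alone. In primed cells the count of 3 was 7 with limma voom. For the difference in priming response the count of 3 was 8 with limma voom, 1 with a replicate block within genotype and 1 to 4 with each library left out, the 1 being without fresh KO replicate 3 or primed WT replicate 1 or 2. For the difference in NKG2D response the count of 21 was 34 with limma voom and 14 to 28 with each library left out, with 14 without NKG2D WT replicate 1, with the compared libraries alone and with a replicate block within genotype. Leaving out 1 library gave 0 in fresh cells, 2 to 3 in primed cells, 26 to 36 after NKG2D, 34 to 37 for priming in KO, 36 to 38 for priming in WT, 40 to 41 for NKG2D in KO, 24 to 35 for NKG2D in WT, 20 to 27 for stimulated against fresh KO and 20 to 23 for stimulated against fresh WT. The cause was not tested.

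Within a genotype each number kept 1 sex pattern over the 3 conditions, but no label says what a number marks. Correlations of the deviations of same-numbered libraries over 7992 genes ran between -0.463 and 0.269 over all comparisons. Within a genotype they were of mixed sign. They were 0.266, -0.0159 and 0.177 between primed and fresh KO cells, and -0.381, 0.0308 and -0.375 between stimulated and primed KO cells. The deviations were taken from means of 3 libraries, which limits this check. Whether the numbers pair libraries is thus not known, and the main fit took no pairing. With the replicate number as a block over both genotypes the counts were 0 in fresh cells, 2 in primed cells, 32 after NKG2D, 36 for priming in KO, 38 for priming in WT, 41 for NKG2D in KO, 31 for NKG2D in WT, 3 for the difference in priming, 17 for that in NKG2D response, 23 for stimulated against fresh KO and 20 for stimulated against fresh WT. A block within each genotype kept 35 of 37 calls for priming in KO and 38 of 38 in WT. It kept 41 of 41 for NKG2D in KO and 31 of 31 in WT. For the difference in priming it kept 1 of 3, and for that in NKG2D response 14 of 21. For stimulated against fresh cells it kept 22 of 26 in KO and 19 of 20 in WT.

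Counts over all genes depended on the tool in fresh cells: 10 with edgeR, 137 with DESeq2, 1900 with limma voom, 564 without the filter and 756 with the compared libraries alone. Library totals alone moved the split of all genes called in the NKG2D response to 3984 higher and 1833 lower in KO (2735 and 2513 with TMM factors) and to 2211 higher and 1145 lower in WT (1367 and 1587).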
